A study of Homo sapiens with 6 samples.

Results

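Coding peaks in exons of 1 kb or more are the DDX5 peaks whose summit lay in coding sequence and in an exon of at least 1000 nt. Each deposited interval counted as 1 peak, placed at its summit with the highest −log10 q. A peak was kept where that summit lay in the coding sequence of an Ensembl-canonical transcript of GENCODE release 44, on the build GRCh38. The rule uses position alone, so the length of the exon is not a finding. Of 93198 peaks on the main chromosomes in the 3 lists, 5965 met it, with 1767, 1350 and 2848 in replicates 1, 2 and 3. They made up 7.45%, 5.71% and 6.21% of the peaks of their list. The other 31678 peaks with a coding summit lay in shorter exons.

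Nuclear extracts of RH30 were immunoprecipitated for the RNA helicase DDX5, and the recovered RNA was sequenced. RH30 is an established alveolar rhabdomyosarcoma line that carries the fusion gene PAX3-FOXO1, in the DDX5_IP group and the INPUT group alike. The DDX5_IP group had 3 samples made with a DDX5 antibody, and each gave 1 peak list. The 3 INPUT samples had no antibody and were not analysed here. The labels call the replicates biological, and every sample came from this line, so the spread between lists holds no difference between tumours. Libraries were unstranded, so a peak in a coding exon cannot be told apart from one on an antisense transcript. Which library the peaks were called against is not given in the sources used here, and the depth is unknown. The fold enrichment of a peak over the peak caller's background is the authors' own value throughout, and it can carry the abundance of the RNA.

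DDX5, also called p68, is a DEAD-box helicase that unwinds RNA duplexes and takes part in transcription, splicing and microRNA processing. It is also a coactivator of MYOD1 in muscle cells. Most internal human exons are short, and splice sites are mostly recognised across the exon. Coding exons of a kilobase or more are a minority, found as the only coding exon of a gene, as the last exon, or as a large internal exon in genes for chromatin regulators, scaffolds and zinc finger proteins. An exon of this length is not all coding, and in the last exon most of it is often untranslated. The last coding exons here had a median coding part of 174 nt, against 1583 nt in internal ones.

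The reference sequence at the summits is shown for the 5 genes whose long-exon peaks ranked highest over the 3 lists, and for the highest gene of the zinc finger list taken by symbol, since their regions were shared by the lists and held highly significant peaks. Each run is read 5′ to 3′ on the transcript strand around the summit of replicate 3, and capitals mark runs of at least 3 G or 3 C. The summits of all lists lay close together in SOCS3, DCAKD, GLI1 and ZNF618, while in MBD6 the other lists, and in ATN1 replicate 2, peaked elsewhere in the exon. They come from MBD6 at chr12:57526247-57526347, plus strand, SOCS3 at chr17:78358445-78358545, minus strand, ATN1 at chr12:6936824-6936924, plus strand, DCAKD at chr17:45024436-45024511, minus strand, GLI1 at chr12:57471046-57471146, plus strand, and ZNF618 at chr9:114049989-114050089, plus strand. The DCAKD run ends with the coding part of its exon and has 76 bases, while the others hold the summit base and 50 bases on each side.
MBD6: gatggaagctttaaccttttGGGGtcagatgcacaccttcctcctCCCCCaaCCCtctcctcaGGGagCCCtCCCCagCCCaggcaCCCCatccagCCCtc
SOCS3: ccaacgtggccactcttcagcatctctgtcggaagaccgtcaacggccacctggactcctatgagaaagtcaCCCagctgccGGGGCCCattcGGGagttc
ATN1: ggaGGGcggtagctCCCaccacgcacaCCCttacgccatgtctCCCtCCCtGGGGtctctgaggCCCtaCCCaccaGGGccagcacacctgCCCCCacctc
DCAKD: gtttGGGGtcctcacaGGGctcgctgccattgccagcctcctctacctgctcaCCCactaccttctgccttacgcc
GLI1: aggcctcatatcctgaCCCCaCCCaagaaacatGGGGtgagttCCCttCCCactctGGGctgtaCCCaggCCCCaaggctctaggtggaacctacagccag
ZNF618: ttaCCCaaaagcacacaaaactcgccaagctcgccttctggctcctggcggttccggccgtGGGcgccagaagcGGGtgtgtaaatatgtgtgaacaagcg
The MBD6 and ATN1 runs hold 7 runs of C each, and GLI1 holds 6. SOCS3 holds 2, and DCAKD and ZNF618 hold 1 each. Their GC content ran from 57.4% in ZNF618 to 69.3% in ATN1.

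The peaks fell on 1144, 932 and 1892 exons of 1047, 860 and 1719 genes in replicates 1, 2 and 3. An exon with a peak held 1.499 ± 0.0483 of them in the mean (SD, n = 3). Over the 3 lists, 2288 exons of 2076 genes had a peak at least once, and 558 exons of 523 genes had one in every list. Those 523 are 4.31% of the 12126 genes with such an exon and 25.2% of the genes with a peak at least once, and the 558 are 4.2% of the 13293 exons. Merged where they shared at least 1 bp, the peaks formed 3370 regions. Of these, 647 (19.2%) lay in all 3 lists, 802 in 2 and 1921 in 1. The shared regions spread over 524 exons of 484 genes. Replicate 2 had the shortest list of such peaks. Without it, 1133 regions and 822 genes were shared by the other two lists.

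The place of the summits was compared between lists in the shared regions. In 430 of the 647 regions each list had exactly 1 peak, and the 3 summits spread over a median of 75.5 bp. The spread was under 50 bp in 36.7% of these regions and under 100 bp in 56.7%. Overlap formed the regions, and no spread expected from overlap alone was computed. The regions were long, with a median span of 621 bp and a longest of 5666 bp, so an overlap of intervals alone says little on place. Fold enrichment ranked the regions alike in the lists. Across the 647 regions, which are not independent replicates, Spearman's rho was 0.65 between replicates 1 and 2, 0.70 between 1 and 3 and 0.72 between 2 and 3. A fold of at least 4 in every list was reached by 54 regions, and a fold of at least 8 by 1 region, that of SOCS3.

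SOCS3, a feedback inhibitor of JAK-STAT cytokine signalling, has a single coding exon, and its region at chr17:78357707-78358847 had folds of 9.12, 15.1 and 11.6 in replicates 1, 2 and 3. Its summits stood at bases 607, 597 and 601 of a coding part of 675 nt, a spread of 10 bp near the stop codon. The SOCS3 intervals of replicates 2 and 3, of 1035 and 1141 bp, were longer than this coding part and ran on past the stop codon. MBD6, a methyl-CpG-binding-domain protein, had 4.14, 17.1 and 10.7 in its internal exon 6 at chr12:57524646-57527145. Its summits at bases 233 and 209 in replicates 1 and 2 stood apart from the one at base 950 in replicate 3, although each list had a single interval there. Those intervals, of 1082, 2432 and 1863 bp, were longer than the exon of 1041 nt, so they ran on into neighbouring introns or exons. ATN1, the transcriptional corepressor atrophin-1, had 6.62, 14.7 and 13.96 in the internal exon 5 at chr12:6935393-6937378. Replicates 1 and 3 shared the summit base of ATN1, and replicate 2 peaked 542 bp upstream. Replicate 1 gave the lowest fold for each of these 3 genes, and the lists differ in background, so a fold is read within its list. DCAKD, named for its dephospho-CoA kinase domain, had 3.42, 3.97 and 6.22 at chr17:45024334-45024777. Its summits lay within 12 bp in the last 289 coding bases of the gene. The DCAKD intervals, of 418, 421 and 441 bp, were longer than that coding part. POU2F1, the octamer-binding factor Oct-1, had 4.99, 7.89 and 6.01 in a last exon of 11841 nt of which 308 nt are coding. Its summits lay within 25 bp in chr1:167415464-167415945, and its intervals, of 429, 426 and 482 bp, were longer than the coding part.

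**Figure D1:**
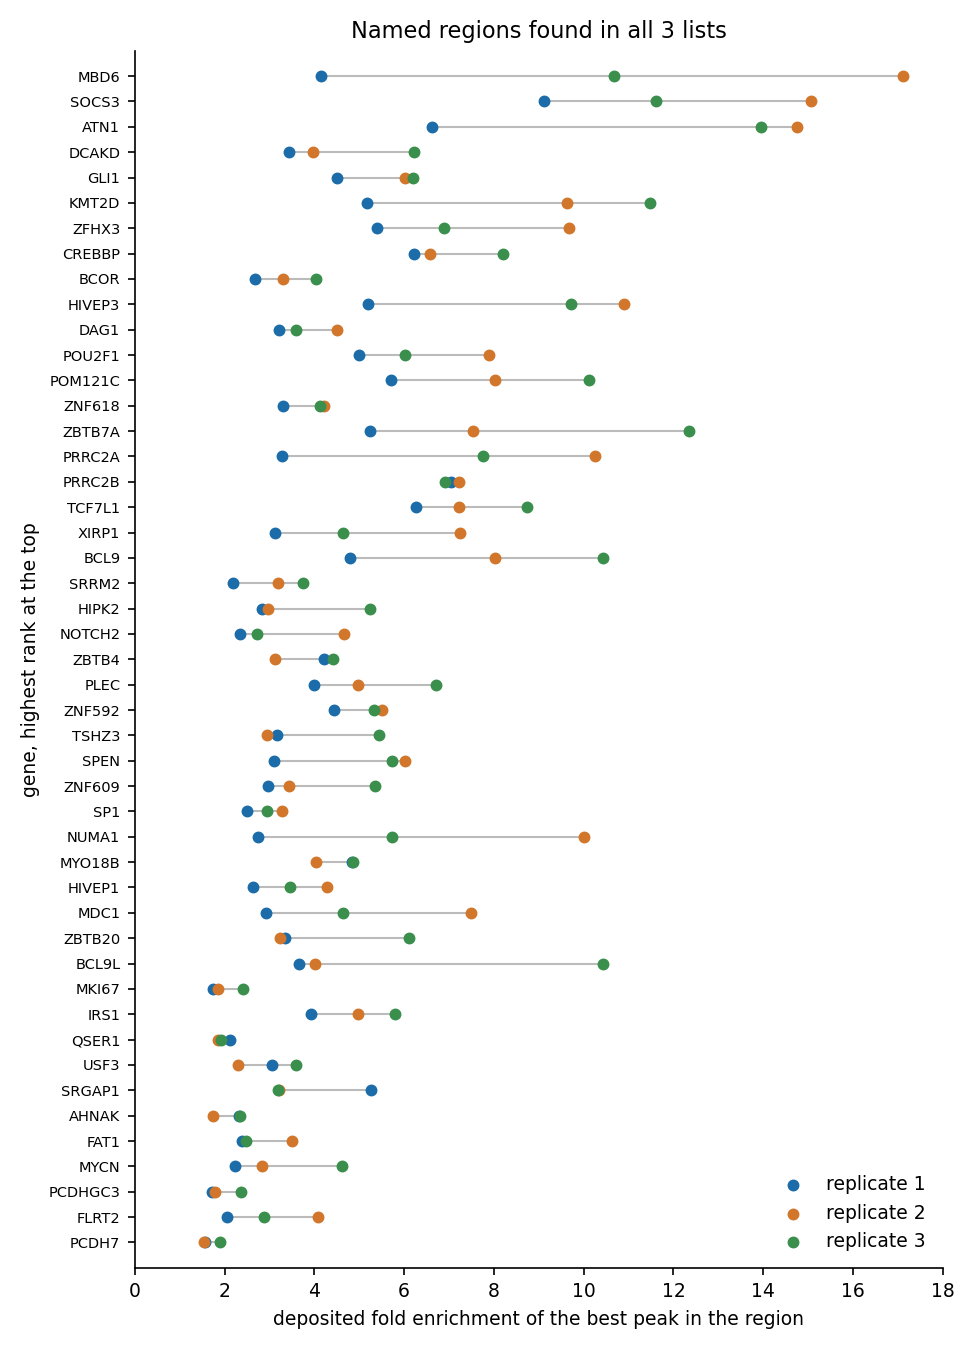
Deposited fold enrichment (x axis, no unit) of the best peak in the highest-ranked region of 47 named genes, ordered by rank from the top, with 1 point for each replicate and a line from the lowest to the highest. SOCS3, MBD6 and ATN1 reach folds of 14.7 to 17.1 in replicate 2, while PCDH7 at the bottom stays between 1.54 and 1.90.

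Genes were then read by role, with 11 lists written with earlier results of these data known. The lists differ in how much coding sequence their genes hold in long exons, so a share is a description beside the 4.31% over all such genes and was not tested. Chromatin regulators are often encoded by large exons. Of 72 with a long coding exon, 56 had a peak at least once and 38 (52.8%) in every list, and they held a median of 2335 nt of long-exon coding sequence against 254 nt over all such genes. The best shared regions of the 38 had a median of the mean fold of 3.56, against 3.22 over the 484 genes with a shared region. KMT2D, a histone H3 lysine 4 methyltransferase, had 8, 7 and 11 peaks in replicates 1, 2 and 3 and shared regions in 6 of its 7 long coding exons. The best, in exon 40 at chr12:49032668-49033583, had folds of 5.18, 9.62 and 11.5 with summits within 72 bp. Its relatives KMT2A, with 11, 6 and 7 peaks, and KMT2C, with 9, 8 and 6, also had peaks in every list. CREBBP, an acetyltransferase of histones and other proteins, had 6.21, 6.58 and 8.21 in its last exon at chr16:3729388-3729927, and its paralog EP300 had 3, 2 and 2 peaks. BCOR, a corepressor found in a variant polycomb complex, had 2.67, 3.30 and 4.04 in exon 4 at chrX:40072315-40075199, with best summits spread over 372 bp. The 38 genes also included the chromatin remodellers CHD7 with 4, 4 and 3 and CHD8 with 2, 2 and 1, the DNA demethylase TET1 with 3, 3 and 8, and the BAF subunits ARID1A with 1, 2 and 2 and ARID2 with 3, 3 and 4. HIVEP1, HIVEP2 and HIVEP3 in this list are large zinc finger transcription factors. HIVEP3 had 5.20, 10.9 and 9.73 in exon 4, where 6 peaks of replicate 1 and 3 of replicate 2 merged with 1 interval of 5580 bp in replicate 3.

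Cytoskeletal and muscle proteins of great length formed the next group. Of 46 with a long coding exon, 26 had a peak and 21 (45.7%) had one in every list, with a median of the mean fold of 2.98. XIRP1, an actin-binding protein of striated muscle, had folds of 3.11, 7.24 and 4.64, with summits within 17 bp. PLEC, the cytolinker plectin, had 3.98, 4.96 and 6.70 in its last exon. MYO18B, an unconventional myosin of muscle, had 4.84, 4.03 and 4.87. TTN, the sarcomeric spring titin, had 4, 10 and 37 peaks, so replicate 3 held most of them. DAG1, dystroglycan, which links the muscle cell membrane to the matrix, was among the 15 highest genes, with 3.22, 4.49 and 3.59 in its last exon at chr3:49530777-49534613.

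RNA processing factors had peaks in 28 of 51 genes at least once and in 16 (31.4%) in every list. The 15 with a shared region had a median of the mean fold of 3.04. PRRC2A, a reader of N6-methyladenosine, had 3.27, 10.3 and 7.75 in exon 16 at chr6:31631085-31631677, with summits at bases 127, 123 and 125, a spread of 4 bp. Its paralog PRRC2B had 7.04, 7.21 and 6.90, but the best summits of its 3 lists spread over 1008 bp. SRRM2, a scaffold of nuclear speckles, had 2.18, 3.19 and 3.75 in exon 11 of 6701 nt, of which 63.1%, 67.6% and 93.9% lay under a peak. The speckle protein SON had 5, 3 and 7 peaks, and DDX17, the closest paralog of DDX5, had 2, 1 and 1. The silencing factors TNRC6A, TNRC6B and TNRC6C, which bind Argonaute, had peaks in every list.

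Among 85 transcription factors with such an exon, 32 had a peak and 15 (17.6%) had one in every list. ZFHX3, a homeodomain and zinc finger factor, stood out by number, with 12, 12 and 11 peaks and 9 shared regions in all 3 of its long coding exons. Its best region, in the last exon at chr16:72788031-72788507, had folds of 5.40, 9.67 and 6.88. Its relative ZFHX4 had 10, 15 and 8 peaks. SP1, a GC-box factor, had 2.504, 3.27 and 2.93, and TSHZ3, a teashirt family factor, had 3.16, 2.94 and 5.43. The best summits of the lists spread over 468 bp in SP1 and over 1629 bp in TSHZ3.

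Zinc finger genes taken by symbol were the largest list. Of 537 with a long coding exon, 169 had a peak and 36 (6.70%) had one in every list. Among the 36, ZFP36L1 and ZNFX1, carry other kinds of zinc finger. ZNF618 had 3.29, 4.21 and 4.13 at chr9:114049681-114050203, with summits within 8 bp. ZNF592 had 4.44, 5.51 and 5.33, with best summits spread over 736 bp. ZNF609 had 2.98, 3.44 and 5.35, with best summits spread over 1011 bp. Peaks in these genes numbered 109, 125 and 235, in 65, 81 and 141 genes. Many genes of this family are similar in sequence, and how reads were shared between similar genes is not given in the sources used here. BTB zinc finger genes had 17 of 39 with a peak and 8 (20.5%) with one in every list. ZBTB7A, a repressor also called LRF, had 5.23, 7.53 and 12.3 at chr19:4047672-4048237 with summits within 22 bp. ZBTB4, a binder of methylated DNA, had 4.21, 3.12 and 4.41 with summits within 4 bp. ZBTB20 had 3.35, 3.24 and 6.10, with best summits spread over 380 bp.

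Signalling adaptors and anchoring proteins had 34 of 59 genes with a peak and 17 (28.8%) with one in every list. Besides SOCS3, HIPK2, a nuclear serine/threonine kinase, had 2.84, 2.97 and 5.25, with summits spread over 427 bp. The receptor NOTCH2 had 2.35, 4.66 and 2.72 with summits within 23 bp. Of 25 frizzled receptors and Wnt scaffolds, 10 had a peak and 5 (20.0%) had one in every list: AMER1, APC, BCL9, BCL9L and TCF7L1. All 5 act on beta-catenin or with it. The receptors FZD2 and FZD4 had 1 peak each, in replicate 2, and FZD6 had 1, 0 and 2. TCF7L1, a transcription factor of the pathway, had 6.27, 7.21 and 8.73 at chr2:85308962-85309224 with summits within 24 bp. The beta-catenin coactivators BCL9 and BCL9L had 4.80, 8.02 and 10.4, and 3.65, 4.01 and 10.4. The summits of BCL9L lay within 3 bp, and those of BCL9 within 461 bp.

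Rhabdomyosarcoma and myogenic genes had 18 of 35 with a peak and 6 (17.1%) with one in every list. These 6 were GLI1, IGF1R, IRS1, JARID2, MYC and MYCN. GLI1, the transcriptional effector of Hedgehog signalling, ranked next after DCAKD among all genes. Its region at chr12:57470361-57472223 in the last exon had folds of 4.50, 6.02 and 6.19, with summits within 39 bp. It lies near the MBD6 region on the same chromosome, and copy number there was not examined. IRS1, the docking protein of the IGF1 receptor, had 3.93, 4.97 and 5.81, and 5, 5 and 3 peaks in its single coding exon. MYCN, the MYC family factor amplified in some of these tumours, had 2.23, 2.84 and 4.61, with summits spread over 448 bp. MYOD1, MYOG, DES and FGFR4, which mark the myogenic state of such cells, have no coding exon of 1 kb or more. Summits lay between the ends of their coding exons in every list, introns and untranslated parts included, 1 each for MYOD1, 3, 2 and 3 for MYOG, 6, 5 and 6 for DES, and 2, 6 and 11 for FGFR4. In coding sequence there were 0 for MYOD1 in every list, 0, 0 and 1 for MYOG, 4, 3 and 4 for DES, and 1, 5 and 11 for FGFR4. TFAP2B, a target of the fusion, had none there. PAX3 has 32 coding bases in long exons and no long-exon peak. FOXO1, with 1965, had 2, 0 and 2, which were not assigned to the wild-type or the fusion transcript. DDX5 itself has 401 such bases and no long-exon peak. The markers' peaks show RNA recovered from these genes, not its level.

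Genome stability and mitosis genes had 25 of 42 with a peak and 8 (19.05%) with one in every list. NUMA1, an organiser of spindle poles, had 2.75, 10.0 and 5.73. MDC1, a scaffold of the DNA damage response, had 2.92, 7.499 and 4.64, with best summits spread over 1081 bp. MKI67, which coats mitotic chromosomes, had 14, 8 and 4 peaks at folds of 1.74, 1.86 and 2.41 for the best region. The best summits of that region spread over 703 bp. Replicate 2 gave the highest value for NUMA1 and MDC1 and replicate 3 for MKI67. Protocadherins and giant cadherins, adhesion proteins with very large exons, had 19 of 75 with a peak and 4 (5.33%) with one in every list, and they hold a median of 2660 coding nt in such exons. FAT1 had 2.38, 3.51 and 2.48, PCDHGC3 had 1.71, 1.79 and 2.37, and PCDH7 had 1.55, 1.54 and 1.90. POM121C, a nucleoporin gene, had 5.72, 8.02 and 10.1 and was among the 15 highest genes, but it has a near-identical copy, POM121, so its peaks are uncertain. The best POM121C summits of the lists spread over 795 bp.

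Several long exons held a series of peaks instead of 1. The most shared regions in an exon were 5, reached by SPEN exon 11, USF3 exon 7, HIVEP1 exon 4, ZFHX3 exon 9 and QSER1 exon 4. SPEN, an RNA-binding corepressor that acts in X inactivation and Notch signalling, had 9, 8 and 7 peaks in this exon of 8176 nt, and they covered 39.3%, 51.5% and 84.4% of it. USF3 had 8, 7 and 7 peaks over 42.6%, 28.4% and 59.1% of its 6479 coding nt. HIVEP1 had 7, 6 and 7 over 30.6%, 30.6% and 74.5%. ZFHX3 had 7, 6 and 6 over 52.5%, 70.8% and 83.6%, and QSER1, a chromatin protein that works with TET1, had 7, 5 and 5 over 61.0%, 50.8% and 85.5%. Replicate 3 covered the most of each of these 5 exons. In AHNAK, a giant scaffold protein, exon 5 holds 17328 coding nt. It had 15, 3 and 12 peaks over 79.8%, 2.04% and 81.3%, so replicate 2 left almost all of the exon without a peak where the other lists covered most of it. The other 2 of the 3 longest exons with a peak in every list are mostly untranslated. The exon of FLRT2, an adhesion protein, has 33290 nt with 1980 coding, and its region had folds of 2.04, 4.08 and 2.89. The last exon of SRGAP1, a GTPase-activating protein of Slit-Robo signalling, has 19923 nt with 375 coding, and its region had 5.27, 3.21 and 3.19.

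**Figure D2:**
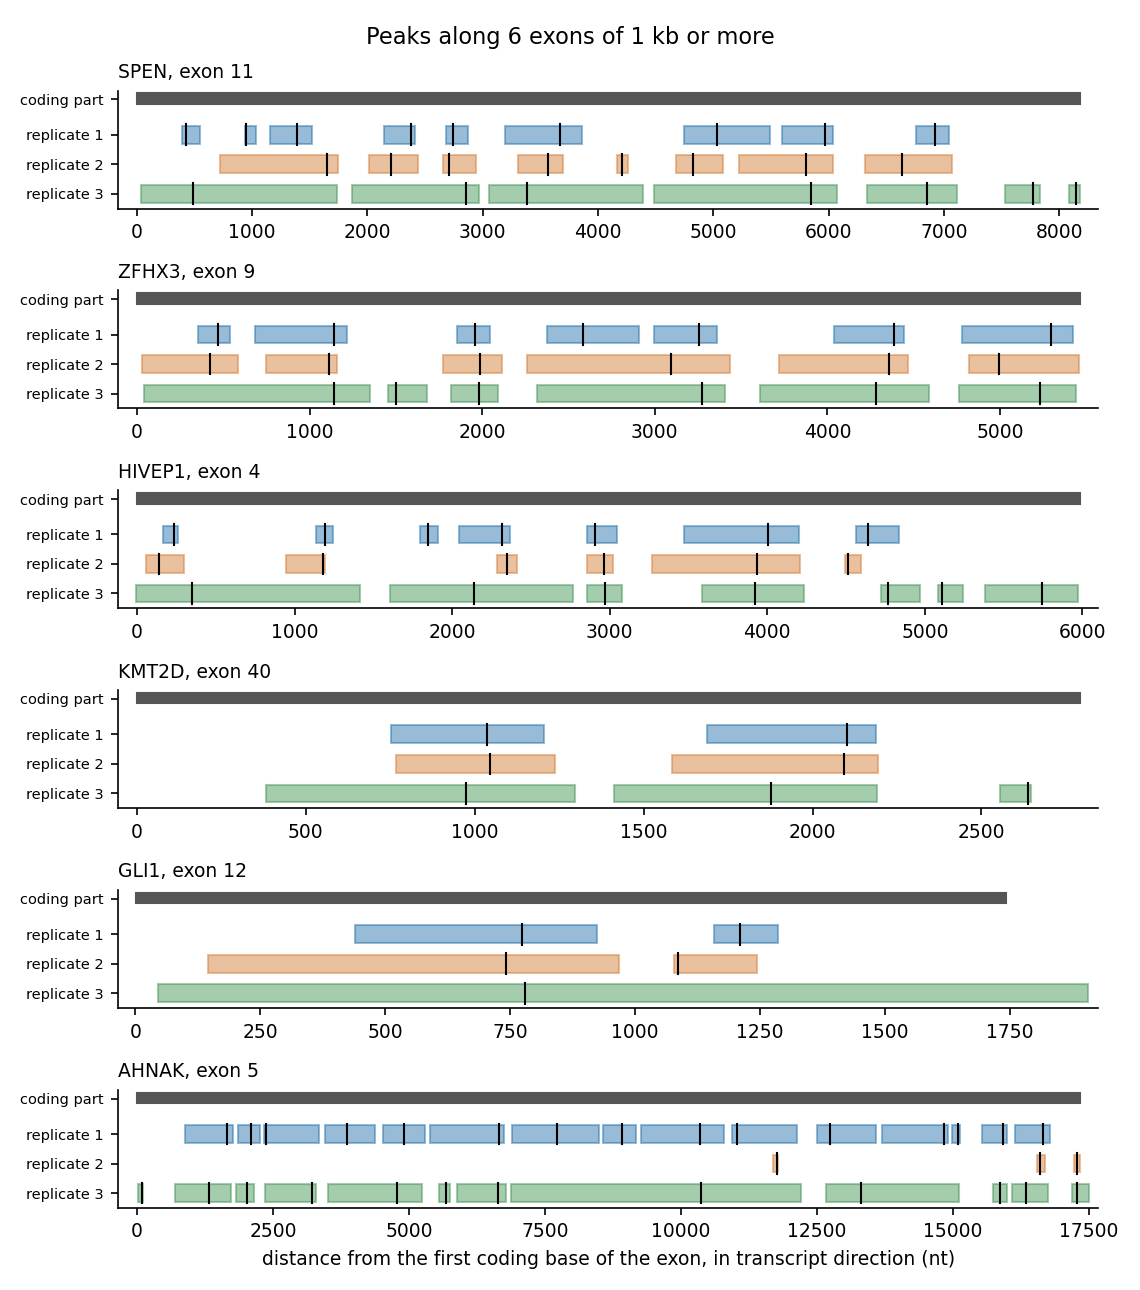
Intervals (coloured bars) and summits (black ticks) of each replicate along the coding part (dark bar) of 6 exons, with the distance from the first coding base in nt on the x axis. The 2 best summits of KMT2D exon 40 in replicates 1 and 2 line up, replicate 3 joins neighbouring peaks in SPEN and GLI1, and AHNAK has 15, 3 and 12 peaks.

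The share of exons with a peak in every list grew with the length of the coding part. Of exons with fewer than 200 coding nt, 0.589% had one in every list. That share was 10.3% for 1000 to 1999 nt and 20.3% for 2000 to 4999 nt. With at least 5000 nt it was 37.1%, or 33 of 89 exons. A longer stretch offers more places for a peak, and the number of peaks per Mb of coding sequence did not rise in step. It was 374 ± 188 (SD, n = 3) below 200 nt and fell to 133 ± 54.9 between 500 and 999 nt. From there it was 217 ± 87.1 for 1000 to 1999 nt, 254 ± 84.0 for 2000 to 4999 nt and 280 ± 66.7 at 5000 nt or more. The class of 500 to 999 nt was the lowest of all classes in each list, with 116, 88.5 and 194 peaks per Mb in replicates 1, 2 and 3.

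Exons of 1 kb or more held 20.2%, 21.2% and 12.6% of the coding summits in replicates 1, 2 and 3, against 25.1% of canonical coding bases. On the log2 scale the share stood at -0.31, -0.25 and -0.99 relative to the bases, a mean of -0.52 ± 0.41 (SD, n = 3; exact two-sided sign-flip permutation test over the lists, p = 0.25, the smallest that 3 lists can give). All 3 lists lay below the bases, and replicate 3, with the most coding summits, lay furthest. The difference did not hold in every list without peaks that share their values. When peaks whose pair of fold and p recurred in 10 or more peaks of the list were left out, the share was 28.2%, 28.3% and 20.1%, no longer below the bases in replicates 1 and 2. Such pairs made up 41.4%, 40.9% and 51.5% of the long-exon peaks and 62.2%, 59.8% and 72.0% of those in shorter coding exons.

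Within genes that hold both kinds of exon, which keeps the abundance of the gene the same, 1567, 1227 and 2556 summits lay in long exons. The coding bases of the same genes gave 1611, 1284 and 3512, so the ratios were 0.973, 0.956 and 0.728, with a mean log2 of -0.19 ± 0.23 (SD, n = 3; exact two-sided sign-flip permutation test, p = 0.25). Replicates 1 and 2 were close to 1. Counting every summit of an interval gave ratios of 1.102, 1.081 and 0.951, and leaving out the shared pairs gave 1.17, 1.102 and 0.976. Leaving out summits and bases within 50 bases of an exon end gave 0.816, 0.837 and 0.632, lower in every list. The covered bases ran the other way in all 3 lists. In these genes, 24.9%, 23.3% and 37.9% of the coding bases in long exons lay under an interval, against 16.9%, 15.1% and 32.3% in shorter exons, a ratio of 1.40 ± 0.196 (SD, n = 3).

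The difference in width was the steadiest one. Long-exon peaks had median widths of 208, 238 and 263 bp in replicates 1, 2 and 3, against 154, 178 and 179 bp for coding peaks in shorter exons. They were 1.38 ± 0.0737 times as wide (SD, n = 3; exact two-sided sign-flip permutation test on the log2 ratio, p = 0.25), and wider in 3 of 3 lists. Intervals with 2 or more summits made up 36.7%, 36.8% and 46.2% of them, against 18.0%, 17.2% and 19.8%. An interval is given on the genome, so a peak in a short exon can end at a splice site. Whether this accounts for the difference in width was not tested. In genes that held both kinds of peak in the same list, the median widths were 240, 272 and 287 bp against 166, 191 and 189 bp. Median folds differed little, at 2.52, 2.92 and 2.90 against 2.51, 2.83 and 2.83, a ratio of 1.02 ± 0.0143 (SD, n = 3; exact two-sided sign-flip permutation test, p = 0.25).

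How often a peak returned in both other lists depended on the measure. With an overlap of at least 1 bp, 50.1%, 62.3% and 27.5% of the long-exon peaks did so, against 37.3%, 52.7% and 14.6% in shorter coding exons, a difference of 11.8 ± 1.92 percentage points (SD, n = 3; exact two-sided sign-flip permutation test, p = 0.25). With summits within 100 bp the order turned in replicates 1 and 2. The shares were then 19.6%, 26.1% and 12.3% against 29.4%, 42.1% and 11.5%. An overlap of at least 50% of both intervals gave 15.4%, 20.3% and 9.27% against 24.6%, 36.3% and 9.66%, lower in 3 of 3 lists. The exact two-sided sign-flip permutation test gave p = 0.5 for the summits and p = 0.25 for the overlap of 50%. By any touch, long-exon peaks were shared more often, and by summits within 100 bp less often in replicates 1 and 2. Long-exon intervals were also wider, and a longer exon leaves more room for summits to differ. How far interval width and exon length set either measure was not tested.

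**Figure D3:**
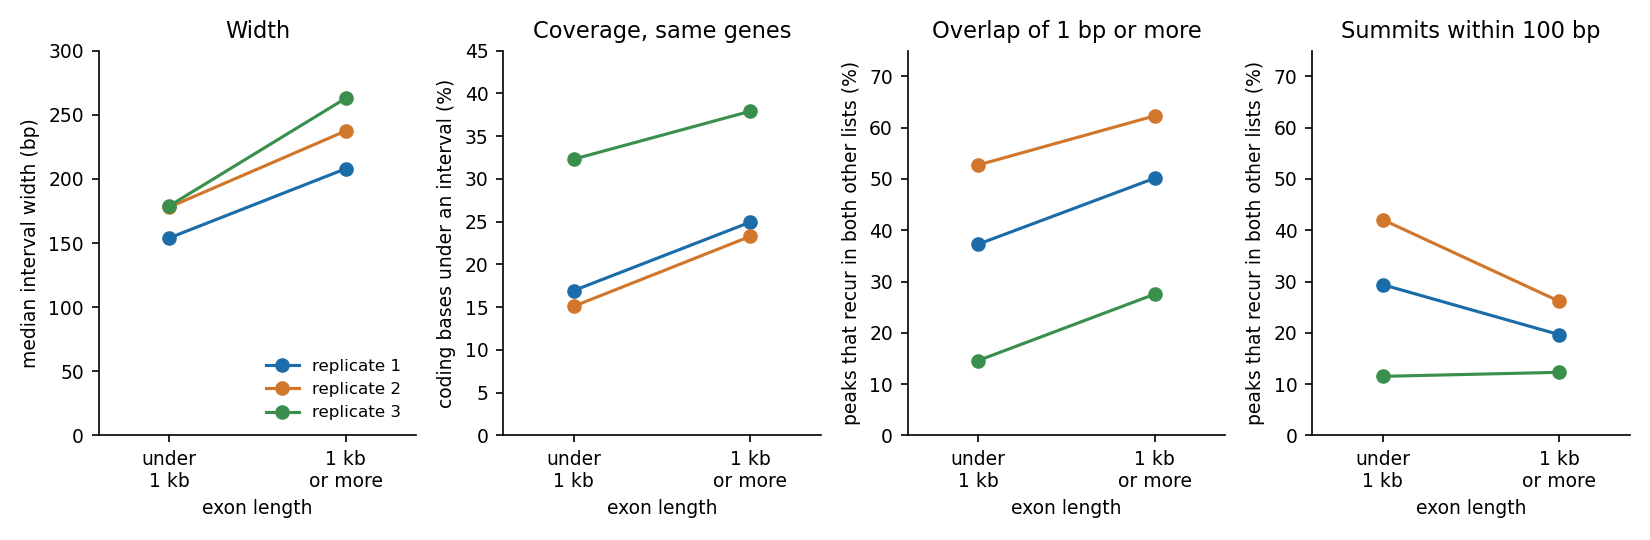
Median width in bp, percent of coding bases under an interval within the same genes, and percent of peaks that return in both other lists by 2 measures, for coding peaks in exons under 1 kb and of 1 kb or more, with 1 line for each replicate. Width, coverage and overlap of 1 bp rise in all 3 lists, while summits within 100 bp fall in replicates 1 and 2 and move from 11.5% to 12.3% in replicate 3.

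Peaks were spread unevenly over the places an exon can take in its transcript, in a comparison that was not tested. Internal long exons held 33.7%, 35.1% and 30.8% of the peaks in replicates 1, 2 and 3 but 21.1% of the coding bases in long exons, a ratio of 1.57 ± 0.105 (SD, n = 3). Exons that hold the whole coding sequence of a gene had 9.17%, 7.26% and 8.43% of the peaks and 22.7% of the bases, a ratio of 0.365 ± 0.0424. Last coding exons had 48.2% ± 1.40 of the peaks and 45.1% of the bases, and first coding exons 10.4% ± 0.843 and 11.1%. All 3 lists lay above the share of bases for internal exons and below it for single exons. Many genes with a single coding exon, those of olfactory receptors among them, are silent in most tissues, and the presence of their RNA in these nuclei was not tested. Median folds were 2.62 ± 0.228 in internal, 2.82 ± 0.264 in last, 2.91 ± 0.184 in first and 2.89 ± 0.319 in single exons (SD, n = 3), and internal exons had the lowest in each list, at 2.35, 2.73 and 2.77. Median widths were 273 ± 45.3 bp in internal, 257 ± 20.1 bp in first, 214 ± 17.0 bp in last and 210 ± 37.2 bp in single exons (SD, n = 3), and first exons were wider than internal ones in replicate 1. Of the 647 shared regions, 257 (39.7%) lay in internal exons, 256 in last, 73 in first and 61 in single exons.

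**Figure D4:**
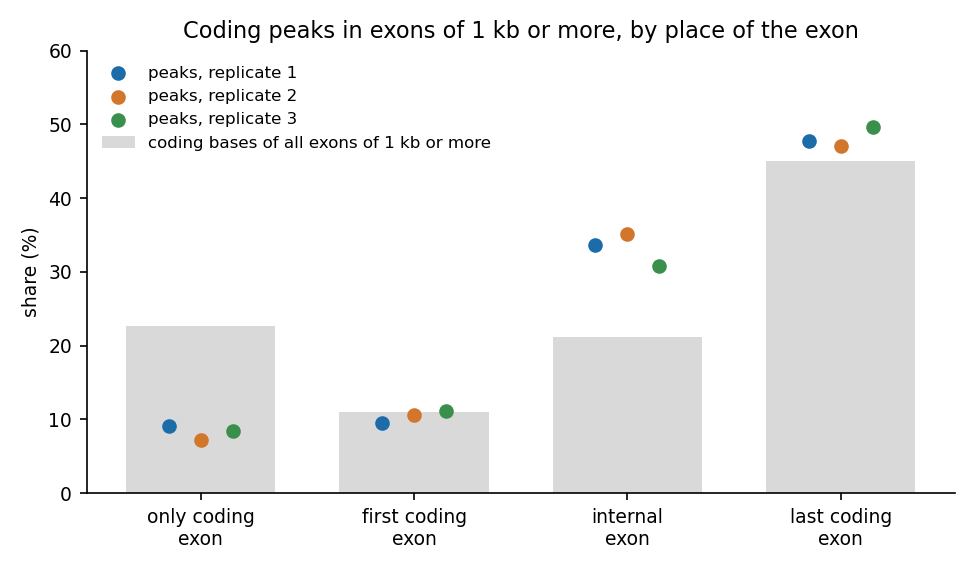
Share in percent of coding peaks in exons of 1 kb or more that lay in the only, first, internal and last coding exon (points, 1 for each replicate), beside the share of coding bases in such exons (grey bars). Internal exons hold 30.8% to 35.1% of peaks over 21.1% of bases, and only coding exons hold 7.26% to 9.17% over 22.7%.

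Along the coding part of an exon, summits were slightly displaced toward the 3′ end. With 0 at the 5′ end and 1 at the 3′ end, the mean position was 0.534 in replicate 1, 0.521 in replicate 2 and 0.518 in replicate 3, or 0.525 ± 0.0087 over the lists (SD, n = 3; exact two-sided sign-flip permutation test against 0.5, p = 0.25). Where the coding part itself had at least 1000 nt, the mean stood 0.0050 above the middle, against 0.025 here. The 20% of the coding part nearest the 3′ end held 25.3%, 24.1% and 23.6% of summits, against 20% for an even spread. In the mean, the rise at the 3′ end was largest in single coding exons, with 30.7% ± 1.98 in that stretch (SD, n = 3). First coding exons had 27.6% ± 1.71, and in replicate 3 they held more than single exons, 29.1% against 28.75%. Internal exons had 21.7%, 25.7% and 23.5% in the 20% nearest the 5′ end in replicates 1, 2 and 3, and 23.7%, 19.6% and 24.2% in the 20% nearest the 3′ end, so replicate 2 showed no rise at the 3′ end. In last and single exons, 30.4% ± 1.53 of summits lay within 100 nt of the stop codon side of the coding part. An even spread over the same exons gave 25.5%, and within 500 nt the values were 61.8% and 61.2%. Among last and single exons that also hold untranslated sequence, 1003, 738 and 1664 summits fell in the coding part, which is 0.901, 0.872 and 1.14 times what its share of the exon gives. Replicate 3 thus differed in direction from the other lists in this ratio.

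The GC content of peaks rose with their fold, and so did that of the exons they lay in. In the window of 50 bases on each side of the summit it averaged 46.8%, 45.6% and 44.5% for folds under 2, 51.6%, 50.8% and 49.5% for folds from 2 to 4, and 57.0%, 56.9% and 56.7% for folds of at least 4. The list means of the 3 classes did not overlap, and the spread over single peaks was not compared. The coding part of the same exons had 45.6%, 50.9% and 57.5% in the mean over the lists, nearly the values at the summits. Over all long-exon peaks the window had 51.0%, 51.3% and 50.3%, against 51.1%, 51.6% and 50.6% for the exon, a difference of -0.24 ± 0.133 percentage points (SD, n = 3; exact two-sided sign-flip permutation test, p = 0.25), which turned to 0.24 points without the shared pairs. Among exons with at least 500 coding nt, those with a peak in every list had a median GC of 52.9%, those with a peak in 1 or 2 lists 48.6%, and those without one 55.9%. Exons without a peak thus had the highest median GC. Their lower quartile, 46.1%, lay just below the 46.9% of exons with a peak in every list. Their median coding part was also shorter, at 1047 nt against 1619.5 nt.

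**Figure D5:**
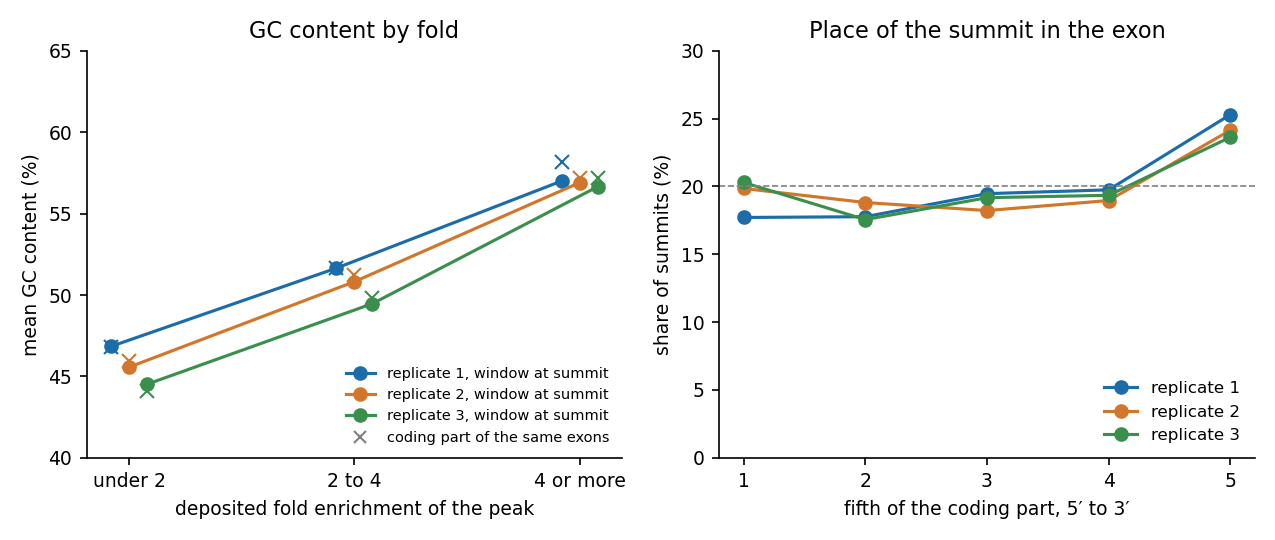
Left, mean GC content in percent of the 50 bases on each side of the summit (points, 1 line for each replicate) and of the coding part of the same exons (crosses), by class of deposited fold. Right, share in percent of summits in 5 equal parts of the coding part from 5′ to 3′, with a dashed line at 20%, and all 3 replicates above it in the part nearest the 3′ end.

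Short motifs were counted in the same windows, on the transcript strand and on the other strand. DDX5 and its relatives can unwind G-quadruplexes, which form from 4 runs of at least 3 G. With spacers of 1 to 7 bases, this pattern was in 3, 4 and 5 windows of replicates 1, 2 and 3, or 0.214% ± 0.0713 (SD, n = 3). The same exons had 0.248% and all windows of long coding exons 0.564%. Replicate 2 lay above its exons, with 0.296% against 0.272%, and replicates 1 and 3 lay below theirs (exact two-sided sign-flip permutation test on the log2 ratio, mean -0.25, p = 0.5). Without the shared pairs the mean log2 ratio turned to 0.24, so windows this few gave no steady direction. On the other strand it was in 0.770% ± 0.297 of the windows and in 1.44% of all. Runs of at least 3 C, seen in several of the sequences shown above, averaged 1.61 ± 0.103 a window against 1.68 ± 0.109 over the same exons. For folds of at least 4 they averaged 2.27 ± 0.1095 against 2.42 ± 0.115, so they were no denser at the summits than in the rest of the exons. The zinc finger linker motif, which encodes the conserved linker between fingers, was in 2.14% ± 0.635 of the windows and in 2.65% of all on the transcript strand. In zinc finger genes it was in 24.7% ± 3.46 of the windows and in 26.3% of all. On the other strand it was in 0 windows of the peaks and in 0.0153% of all. A run of 4 CAG repeats, which encodes glutamine in one of its frames, was in 7, 9 and 9 windows, or 0.460% ± 0.184, against 0.235% of all. KMT2D and SIMC1 gave such a window in every list, and the repeat was in no window on the other strand, against 0.1103% of all. A match is a string of letters in this window and says nothing on binding.

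At the limit of 1 kb the median folds changed little, while the median widths rose in replicates 2 and 3. The widths were 180.5, 189 and 214 bp for exons of 900 to 999 nt in replicates 1, 2 and 3. For exons of 1000 to 1099 nt they were 182, 227 and 263.5 bp. Exons of 900 to 999 nt held 90, 59 and 167 coding peaks with median folds of 2.64, 2.73 and 3.07, and exons of 1000 to 1099 nt held 73, 61 and 114 with 2.73, 2.89 and 3.14. Of the 5965 peaks, 5 lay on the mitochondrial genome, all in replicate 1, and 15, 18 and 24 had a summit in the coding sequence of 2 genes.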

How the data were processed

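Peak lists of the 3 DDX5_IP samples were read, and INPUT was not analysed here. The tools named in the submitters' processing notes are MACS2 2.2.7.1, SAMtools 1.10, STAR 2.6.1d, cutadapt 1.11, FastQC 0.11.8 and bcl2fastq 2.20, with GRCh38 (hg38) as the build. Parameters, the control of the peak calls and the depth are not given in the sources used here, so no interval that needs depth is given. Each deposited list belongs to 1 sample and holds the authors' fold enrichment, a ratio over the caller's background. The authors gave every summit a p-value and a q-value as −log10. The deposited score was not used.

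Peaks on the main chromosomes were joined to GENCODE release 44 and the GRCh38 sequence with Python 3.11.15, numpy 2.4.6, pandas 2.3.3 and pysam 0.24.0. The list is the replicate. Long-exon and shorter-exon coding peaks were compared within each list, and an exact two-sided permutation test that flips the signs of the 3 differences or log2 ratios was applied, whose smallest possible p is 0.25. Peaks of different lists were joined where they shared at least 1 bp. Motifs and GC content were taken within 50 bases of the summit. The share of coding summits, the ratio within genes, the shared regions, GC content and position were tested on lists simulated for part of the chromosomes. The other computations were not checked in this way.

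The members and the 11 gene lists, in which 1 entry had no match, were chosen with earlier results of these data known. Named genes are the 15 with the highest shared region by mean percentile of −log10 q among the peaks of a list, up to 3 such genes of each gene list, the genes of the 5 exons with the most shared regions, the 3 longest exons with a peak in every list, and DDX5, PAX3 and FOXO1. Genes named by their number of peaks alone, such as TTN, KMT2A, CHD7, SON and APC, were chosen after their values were seen. The alternatives were a minimum fold, a stricter q, leaving out repeated pairs of fold and p, equal list lengths, other exon limits, all summits, other overlaps, wider windows, the mitochondrial genome and each replicate left out.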

Additional observations from a re-analysis of the deposited data

How the results depend on the processing

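No alternative could pass the 0.05 threshold, since 3 lists cannot give an exact p below 0.25, so only direction and size are compared. The width of long-exon against shorter-exon peaks kept its direction under every alternative run for it, and so did the position of summits. Counts moved most. Peaks per list averaged 1089 with q under 1e-05, 344 with a fold of at least 4, 1071 when peaks with repeated fold and p were left out, 1291 with exons of at least 2000 nt and 3686 with all summits of an interval. In the same order without the last, regions in all lists numbered 314, 55, 311 and 425, and genes in every list 275, 59, 269 and 331. A reciprocal overlap of 50% left 201 regions, and summits within 100 bp left 309. Without the shared pairs, these mean values turned: the log2 share to 0.0040 (exact sign-flip p = 1), the log2 ratio within genes to 0.11, GC at the summit to 0.24 percentage points and the log2 ratio of windows with 4 runs of G to 0.24. With all summits of an interval, the log2 ratio within genes turned to 0.060 and that of folds to -0.031. Recurrence, long minus shorter, turned to -8.53 points with a reciprocal overlap of 50% and to -8.29 points with summits within 100 bp.

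Leaving out each replicate in turn gave peaks per list from 1558.5 to 2307.5, regions from 757 to 1133, genes from 557 to 822, a log2 share from -0.65 to -0.28, a log2 ratio within genes from -0.26 to -0.05, recurrence from 7.42 to 11.4 points, a log2 fold ratio from 0.019 to 0.039, a log2 width ratio from 0.42 to 0.49, GC from -0.31 to -0.18 points, a log2 ratio for runs of G from -0.44 to -0.09, and a position from 0.020 to 0.028 above the middle. Of the 47 named genes with a shared region, 42 kept a long-exon peak in every list with the stricter q, 19 with the fold of at least 4 and 36 without the shared pairs. The ratio for runs of G with a fold of at least 4 gave no value, because a list had no such window. Recurrence, fold and width within genes that hold both kinds of peak were added after the data were seen, and kept their direction. No paired analysis was possible because the INPUT samples were not analysed here, so no groups were compared. The limits are the unknown depth and control of the peak calls, RNA abundance carried by the fold, and a single cell line.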
